A study of Solanum lycopersicum with 40 samples.

Results

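Root-tip-enriched transcripts of tomato were described in 2 transgenic lines and their vector control. The set was chosen on wild type arrays alone. For each probe set, the mean log2 signal of wild type root tips minus the higher of the wild type fruit and leaf means was taken, with signals under 50 set to that floor, and the 200 largest of 10038 probe sets were kept. The line and vector control arrays played no part in the choice, so the lines could be compared with the vector control on arrays the rule did not use.

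The plants were Solanum lycopersicum of the dwarf cultivar Micro-Tom. Lines N6 and N7 are transgenic lines carrying an InsP 5-ptase gene. Inositol polyphosphate 5-phosphatases remove a phosphate group from soluble inositol signals and thereby end their calcium-releasing activity. The vector control (VC) is given in the labels only as such, and wild type (WT) is untransformed. Each genotype gave 3 root tip arrays, 3 leaf arrays and 4 ripe fruit arrays, 40 in all. Leaves were the first ones of light-grown seedlings 10 days old, and fruit came from pot-grown plants after 9 weeks in a growth chamber. Root tips came from seedlings of 10 days, which the sample descriptions call etiolated but the growth text describes in the words used for leaves, so their light conditions are not settled. No special treatment was given before harvest. The sources used here name neither the promoter of the transgene nor the number of plants per sample. The source label names wild type for every root tip array, and genotype was taken from the titles. Titles call the fruit replicates biological. For leaves and root tips nothing says so, so their p-values reflect the spread among arrays only, and that spread may be technical.

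A root tip holds the dividing meristem, the cells elongating behind it and the first root hairs. Roots are the organ that takes up nitrate, ammonium, sulfate, potassium and iron through membrane transporters, and their cells make walls rapidly and defend a surface that is in contact with microbes. Many transporters, peroxidases, glutathione transferases and cell wall proteins are therefore known as root transcripts.

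The labels were checked first. Reporter control A06498 exceeded the floor on every line array of root tips and leaves and on the 4 fruit arrays labelled N7, and on no VC or WT array. On the 4 fruit arrays labelled N6 it lay between 4.76 and 20.3, under the floor. Reporter control M62653 was between 1198 and 4416 on the fruit arrays labelled WT and at 5161 on the array labelled fruit VC 4. It reached 51 on 1 fruit array labelled N6 and was under the floor on all other arrays. Fruit VC 4 correlated at 0.984 with fruit WT 3 and at most at 0.949 with the other fruit arrays labelled VC, and fruit WT 3 at most at 0.95 with its own group. Leaf N7 3 correlated at 0.982 with leaf WT 3 and at most at 0.975 with the other leaf N7 arrays. In root tips, N6 3 and N7 3 were each nearest to VC 1 (0.988 and 0.989), against at most 0.984 and 0.985 within their own groups, and VC 3 was nearest to N7 1 (0.986, against 0.978). WT 1 and WT 2 were nearest to VC 1 (0.994 and 0.995, against 0.991). VC 1 and VC 2 were nearest to WT 2 (0.995 and 0.99, against 0.988). Members chosen on WT root tips may carry what these WT and VC arrays share. Its part in the differences between lines and VC was not tested. In fruit, group names are those of the labels. Without fruit WT 3 in the rule, 191 of the 200 members were chosen again.

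The root tip label was checked against marker genes. The summed signal of 8 leaf markers, chlorophyll-binding and photosystem genes, was 243.5 to 365.5 on N6, 348 to 579.5 on N7 and 231.5 to 434.5 on VC root tip arrays, against 51970 to 95890 on WT leaf arrays, with 5 or 6 of the 8 at the floor in each root tip group. The summed signal of 8 ripe fruit markers was 348 to 449.7 in N6, 398 to 424.7 in N7 and 595 to 605 in VC root tips, against 37070 to 46870 in WT fruit. The sum of 8 root markers, 4 of which are members, was 15250 to 17270 in N6, 13130 to 15500 in N7 and 15810 to 20750 in VC root tips. In VC it was 1145 to 1392 in leaves and 1476 to 2264 in fruit. The root marker FRO1 was at the floor on all root tip arrays, and PT2 on all those of N7. The 4 members were chosen for their WT root tip signal, so the sum is not an independent check. The sum of 10 cyclin, kinase and other markers of dividing cells, none of them a member, was 7986 to 9074 in N6, 7234 to 8172 in N7 and 7222 to 7936 in VC root tips. In leaves it was 7563 to 9580 in N6, 3434 to 6598 in N7 and 5878 to 7366 in VC. It overlapped with root tips in N6 and VC, so this sum does not set root tips apart from leaves. In bulk samples, fewer cells of a type and less RNA per cell cannot be told apart.

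The values that chose the members ran in WT from a log2 enrichment of 6.32 for Les.3198.1.S1_at, which is 79.7-fold, to 2.51 for Les.4966.1.S1_at, which is 5.71-fold, with a median of 3.49. Just inside the boundary stood LesAffx.69528.1.S1_at at 2.53, Les.5715.1.S1_at at 2.52 and Les.4966.1.S1_at at 2.51. Just outside stood TSI-1 at 2.503, Les.2508.2.S1_at at 2.501 and Les.4852.1.S1_at at 2.5, so the set has no natural edge. The 5 most enriched were Les.3198.1.S1_at, LesAffx.69264.1.S1_at, LesAffx.53132.1.S1_at, LesAffx.66472.1.S1_at and Les.3828.1.S1_at, all without a gene symbol. A symbol was available for 41 members, of which 33 are informative gene names, and 159 members had none. The boundary fell in a dense part of the list, and most of the set has no name.

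The named members fall into a few roles. Mineral transport and metal binding held 6 of the 16 genes of that kind on the array. These were the ammonium transporter AMT1-2, the sulfate transporter ST1, the potassium channel LKT1, FER, a bHLH factor that switches on iron uptake, and the metallothionein-like genes MT2 and MT3. Of 52 cell wall genes 5 were members: the expansin EXPA8, the extensin ext1, the proline-rich protein TPRP-F1, the xyloglucan endotransglucosylase/hydrolase XTH6, and Xegip, an inhibitor of fungal xyloglucanase. Of 6 peroxidase and glutathione transferase genes 3 were members (TPX2, ctu1 and GST-T4), of 10 phenylpropanoid and amide genes 3 (THT1-3, THT7-8 and LOC543602), and of 13 oxylipin genes 2 (the divinyl ether synthase DES and the oxophytodienoate reductase opr2). Smaller groups were the glucanase GluB and LOC606710, the hexose transporter HT2 and the invertase Wiv-1 (also LIN6), the ethylene genes ACO5 and PTI5, and the aquaporin TIP. No gene of 14 in the cell cycle list was a member.

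The first question was whether the enrichment chosen in WT is seen on arrays that had no part in the choice. In VC, 200 of 200 members were higher in root tips than in both fruit and leaves at adjusted p under 0.05 (limma), against a background of 20.8% of 7572 probe sets. In N6 it was 190 members against a background of 18.4%, and in N7 197 members against 19.4%. The median log2 enrichment of the members was 3.02 in N6, 3.05 in N7 and 3.32 in VC. The highest 200 probe sets of each genotype's own ranking held 148 members in N6, 150 in N7 and 173 in VC. Growth, tissue and preparation cannot be told apart in this comparison between organs.

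**Figure D1:**
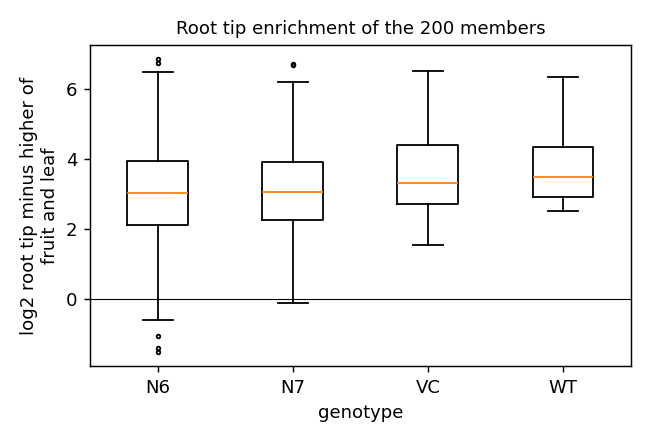
Log2 enrichment of the 200 members in root tips over the higher of fruit and leaf, by genotype. Boxes show quartiles and median, whiskers reach to 1.5 times the box, and points lie beyond. WT chose the members. The median was 3.02 in N6, 3.05 in N7, 3.32 in VC and 3.49 in WT, and 6 N6 members lie below 0.

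The members that lost their enrichment in the lines were few. In N6, 6 members had an enrichment under 0: Les.5530.1.S1_at at -1.49, LesAffx.64439.1.S1_at at -1.38, LesAffx.31022.1.A1_at at -1.04, Les.5884.1.S1_at at -0.58, Les.4140.1.S1_at at -0.54 and GluB at -0.12. In N7 only LesAffx.31022.1.A1_at was below 0, at -0.11. In VC these 6 stood between 1.68 and 3.07. Les.5884.1.S1_at had leaf signals of 819, 509 and 351 in N6, 186, 165.7 and 90.8 in N7 and 66.1, 71.8 and 136 in VC, so N6 leaves lay above the rest. Les.4140.1.S1_at had 431, 484 and 241.5 in N6, 182, 246 and 36.4 in N7 and 76.3, 99.4 and 55.4 in VC leaves, with N6 above VC and N7 2 above N6 3. Leaf signals of the other 4 follow below. Root tip signals entered the loss as well. For Les.5530.1.S1_at and LesAffx.64439.1.S1_at the N6 effect in root tips minus that in leaves was -4.22 and -4.05. The leaf effects were only 2.96 and 2.62, so N6 root tips lay below VC. The N6 root tip means of Les.5884.1.S1_at and Les.4140.1.S1_at were also under those of VC.

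In root tips themselves, members as a group were at lower signals in both lines than in VC, but the difference of single members rarely passed the test. No member was called in N6 against VC, where the background is 0% of 6373 probe sets. At an unadjusted p under 0.05, 40 members differed (background 7.77%), 3 higher and 37 lower, and the background is 3.37% higher and 4.39% lower. In N7 against VC 1 member was called, lower, and the background is 0.0785% in either direction, 0.0628% lower and 0.0157% higher. At an unadjusted p under 0.05, 36 members differed in N7 (background 4.46%), all lower, and the background is 2.57% lower and 1.88% higher. The median log2 difference of the members was -0.289 in N6 and -0.234 in N7, beside medians of -0.015 and 0.019 over all tested probe sets. The 3474 other probe sets at least as bright in WT root tips as the dimmest member, at a mean signal of 294, had medians of 0.012 and 0.021. The difference lay below 0 for 154 of 200 members in N6 (77%, background 51.9%) and 151 in N7 (75.5%, background 46.3%). Both comparisons share the 3 VC arrays, and N6 and N7 root tip arrays of the same number deviated together from their group means (correlations of 0.319, 0.305 and 0.414 for numbers 1, 2 and 3), so the 2 comparisons are not independent of each other.

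**Figure D2:**
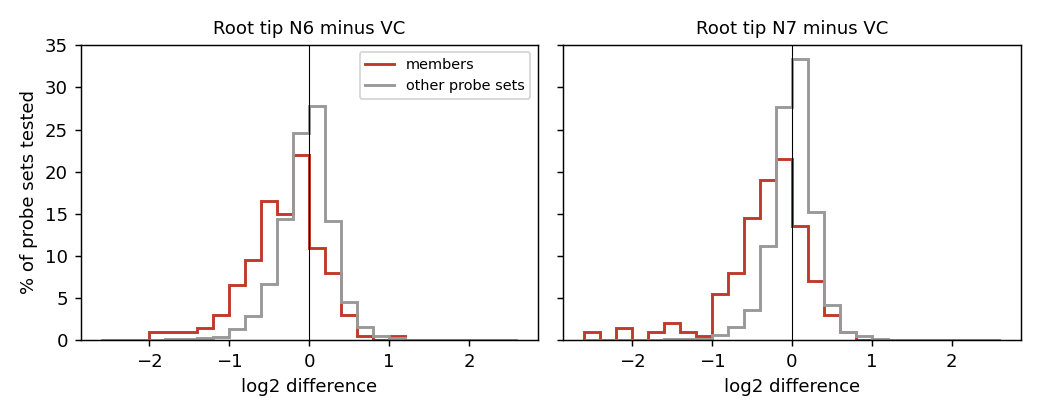
Distribution of the log2 difference in root tips, N6 minus VC on the left and N7 minus VC on the right, as the percentage of probe sets in bins of width 0.2. The red line is the 200 members and the grey line the other tested probe sets. The members' median lies at -0.289 in N6 and -0.234 in N7.

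The size of the difference was small for most members and over 2-fold for some. Lower by over 2-fold were 15 members in N6 (7.5%, background 1.37%) and 14 in N7 (7%, background 0.8%). Higher by over 2-fold were 1 member in N6 (background 0.345%) and 0 in N7 (background 0.424%). For 19 members (9.5%) all 6 line arrays lay below all 3 VC arrays, beside a background of 1.96%. For 0 members did all 6 lie above, beside a background of 2.62%. Among the 19 are ST1, Asc-1, GluB, ODD, LOC543933 and LOC544153, and the other 13 have no symbol.

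The shift differed between the arrays of a line. The median member signal was 777, 765 and 1038 on N6 arrays 1 to 3, 823, 781 and 1058 on N7 arrays 1 to 3, and 1182, 1012 and 1052 on VC arrays 1 to 3. The arrays 1 and 2 of both lines lay below all VC arrays, and the arrays 3 did not. Relative to the VC mean, the median member stood at -0.42, -0.33 and -0.12 on the N6 arrays and at -0.40, -0.28 and -0.04 on the N7 arrays, while the median of the other probe sets above the dimmest member, which were not matched to the members in brightness, stayed between 0.003 and 0.043. The shifts of N6 and N7 are alike at each replicate number. The log2 ratio of 3' to 5' signal of the control genes, a measure of RNA integrity and labelling, was 3.56, 3.13 and 2.35 on the N6 arrays, 3.49, 3.1 and 2.21 on the N7 arrays and 2.57, 2.77 and 3.15 on the VC arrays. In both lines arrays 1 and 2 had a higher ratio and lower member signals than array 3. In VC, array 1 had the lowest ratio and the highest member median, and arrays 2 and 3 had higher ratios and lower medians. Whether RNA integrity or labelling had a part in the shift was not tested. With this ratio as a covariate the medians were -0.22 in N6 and -0.203 in N7, and with each array scaled to its median they were -0.167 and -0.215, where all tested probe sets moved to 0.098 and 0.036. Leaving out 1 array in turn gave medians between -0.363 and -0.164 in N6 and between -0.363 and -0.169 in N7. For the covariate and the left-out arrays the median over all tested probe sets is not given. Those medians therefore cannot be read as particular to the members.

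**Figure D3:**
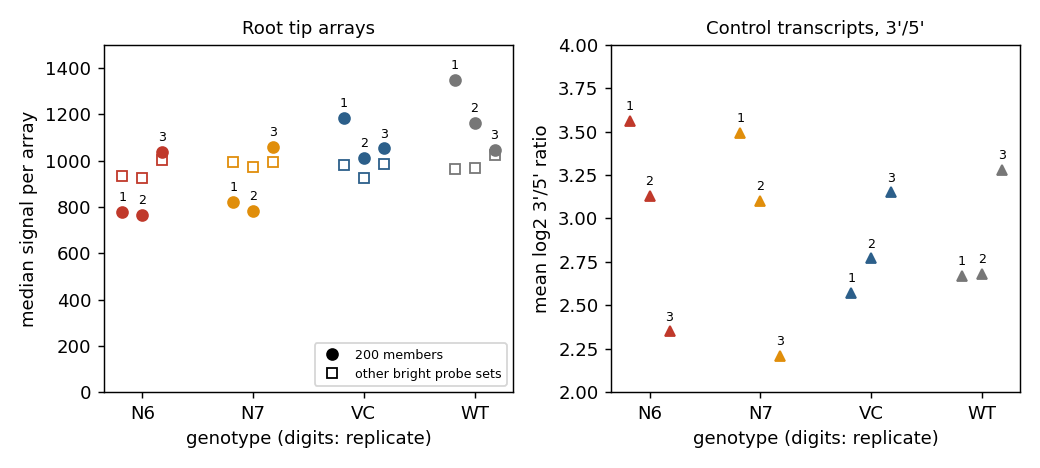
Left, the median signal of the 200 members (filled circles) and of the other bright probe sets (open squares) on each root tip array. Right, the log2 3'/5' ratio averaged over control genes on the same arrays, with the replicate number above each point. Members are at 777 and 765 on N6 1 and 2 and at 823 and 781 on N7 1 and 2, while VC lies between 1012 and 1182.

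The member called in root tips was LesAffx.59549.1.S1_at, which has no gene symbol. Its signal was 599.6, 627 and 856.7 in N6, 242, 253.7 and 299.5 in N7, and 1194, 1438 and 1726 in VC. Both lines lay below every VC array, and N7 also lay below every N6 array. The log2 difference was -2.44 ± 0.21 (SE) in N7, 5.44-fold lower, with an adjusted p of 0.0013. In N6 it was -1.07 ± 0.21, with an adjusted p of 0.403, and N7 against N6 gave -1.38 with an adjusted p of 0.0788, or 0.142 with the replicate number as a block on the 6 line arrays. The N7 call was kept when any of the 9 arrays was left out. With the mean of N6 and N7 against VC, a comparison added after the data were seen, it was at -1.76 with an adjusted p of 0.00907 and was the 1 probe set of 6373 called (0.0157%). In leaves the signal was 320.8, 183 and 249.7 in N6, 68.1, 33.2 and 31.4 in N7 and 127, 153 and 138.5 in VC. The N7 leaves were again below VC and the N6 leaves above it. The leaf difference in N7 was -1.33 ± 0.23 (adjusted p = 0.0153), which was lost without VC 1, VC 2 or N7 2 (adjusted p up to 0.0677), and with WT in the fit or at a floor of 100, where it was -0.478 (adjusted p = 0.146). In N6 leaves it was 0.81 ± 0.23 (adjusted p = 0.0498), lost without any 1 VC array, without N6 1, N6 3 or N7 2 (adjusted p up to 0.176), and under 7 other settings, among them both other scalings (adjusted p up to 0.228). In fruit all arrays were under the floor.

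Among genes of mineral transport and metal binding, the members lay on the low side in the lines. Signals of ST1 were 1875, 1655 and 1781 in N6, 1178, 1536 and 1768 in N7 and 2604, 2538 and 2237 in VC. The line arrays did not overlap with the VC arrays, and the differences of -0.47 ± 0.16 in N6 (adjusted p = 0.481) and -0.74 ± 0.16 in N7 (adjusted p = 0.2) did not pass the test. AMT1-2 stood at 2128, 1115 and 1989 in N6, 2493, 2019 and 2136 in N7 and 2408, 2887 and 2646 in VC, so N7 1 overlapped with VC while N6 lay below it. MT2 was at 851.5, 376.6 and 975 in N6, at 3448, 1143 and 1474 in N7 and at 1314, 3235 and 4331 in VC, with every N6 array below VC and N7 overlapping it. The MT2 difference in N6 was -1.96 ± 0.53 with an adjusted p of 0.403. MT3 differed by -0.88 in N6 and -1.46 in N7, also not past the test. FER had 3018, 3309 and 2660 in N6, 2286, 3059 and 2724 in N7 and 2977, 3234 and 3269 in VC, overlapping in both lines. LKT1 differed by -0.08 in N6 and -0.54 in N7. Over the 14 tested genes of this list, members and others together, the median was -0.462 in N6 and -0.484 in N7, beside -0.015 and 0.019 over all tested probe sets, and 0 of the 14 were called.

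Cell wall members went both ways and none was called. XTH6, an enzyme that cuts and rejoins xyloglucan, had 191.7, 415 and 609.7 in N6, 256.6, 586.6 and 372.5 in N7 and 756, 832 and 513 in VC. VC 3 overlapped with both lines. EXPA8, of the expansins that loosen walls, had 529.6, 948 and 680.7 in N6, 223.5, 563 and 711 in N7 and 580.5, 626 and 114.8 in VC. Its difference of 1.01 ± 0.63 in N6 is the only one above 2-fold among all members, and VC 3 was far below the other 2 VC arrays. The extensin ext1 had 158.9, 170 and 56.1 in N6, 869.5, 546 and 246 in N7 and 630, 155.8 and 266.7 in VC, a spread within VC as wide as the difference. TPRP-F1 differed by 0.29 in N6 and -0.04 in N7, and Xegip by -0.16 and -0.12. Over the 36 tested genes of the list the median was -0.104 in N6 and -0.116 in N7, and 0 were called.

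Members of defence, redox and oxylipin metabolism were next. GluB, a glucanase of the pathogenesis-related kind, had 3616, 2366 and 2948 in N6, 2588, 3090 and 3754 in N7 and 4112, 5424 and 4365 in VC. All 6 line arrays lay below VC, and the differences of -0.65 ± 0.19 (adjusted p = 0.479) and -0.57 ± 0.19 (adjusted p = 0.845) did not pass the test. DES, which makes divinyl ether fatty acids, had 199.7, 190.8 and 263 in N6, 1589, 238 and 556.9 in N7 and 562.7, 549.6 and 1089 in VC. N6 lay below VC and N7 spanned it. opr2 differed by -0.13 in N6 and -0.18 in N7, TPX2 by -0.03 and -0.29, ctu1 by -0.11 and -0.27, and GST-T4 by -0.06 and -0.09. The tyramine transferases THT7-8 and THT1-3 differed by -0.40 and -0.93 in N6 and by -0.17 and 0.11 in N7. None of these was called. In the 10 tested pathogenesis-related and wound genes the median was -0.424 in N6 and 0.027 in N7, and in the 10 tested oxylipin genes -0.321 and -0.153, with 0 called in either.

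Asc-1, a homologue of ceramide synthase known for resistance to a fungal toxin, had 702, 706 and 920 in N6, 834, 693 and 847 in N7 and 1390, 1071 and 1041 in VC. All line arrays were below VC, at -0.59 ± 0.18 in N6 and -0.56 ± 0.18 in N7, with adjusted p of 0.481 and 0.729. ODD had 202, 414.5 and 274.7 in N6, 344, 158.6 and 262.6 in N7 and 792.6, 523 and 1077 in VC, again without overlap, at -1.43 ± 0.38 (adjusted p = 0.403) and -1.65 ± 0.38 (adjusted p = 0.246). Mdip1 had 1144, 849.7 and 2301 in N6, 383.5, 537 and 944.5 in N7 and 2291, 2523 and 2567 in VC. N7 lay well below VC at -2.08 ± 0.38 with an adjusted p of 0.107, the lowest among the 33 members with a gene name, and N6 3 reached the range of VC. ACO5, an ACC oxidase of ethylene synthesis, had 547.7, 517 and 576 in N6, 203.2, 247 and 1265 in N7 and 737.6, 998 and 2335 in VC, with N7 3 inside the VC range. PTI5, an ethylene response factor, had 244.5, 152 and 262 in N6, 1458, 281.8 and 455 in N7 and 237, 207.8 and 1054 in VC, overlapping in both lines. Over the 29 tested genes of the ethylene list the median was -0.385 in N6 and -0.269 in N7, and the 1 called, lower in N7, was EIN2, which is no member.

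The remaining named members moved little in root tips. The aquaporin TIP, which carries water across the vacuole membrane, had 7105, 5698 and 4962 in N6, 4489, 5334 and 4752 in N7 and 5050, 6927 and 4833 in VC, with full overlap. The invertase Wiv-1 differed by -0.36 in N6 and -0.14 in N7, the hexose transporter HT2 by -0.17 and 0.39, and the glutamate dehydrogenase gdh1 by -0.13 and -0.29. The subtilisin-like protease sbt3 differed by -0.18 and -0.05, the phospholipase D gene PLDb1 by -0.29 and -0.36, NAC1, a NAC transcription factor, by -0.42 and 0.10, and NITF by -0.20 and -0.21. Dif54 was on the high side, at 0.56 and 0.35. Of the 33 named members 29 lay below 0 in N6 (background 51.9%) and 26 in N7 (background 46.3%), and 0 were called in either. The lowest adjusted p among them was 0.403 in N6 and 0.107 in N7.

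**Figure D4:**
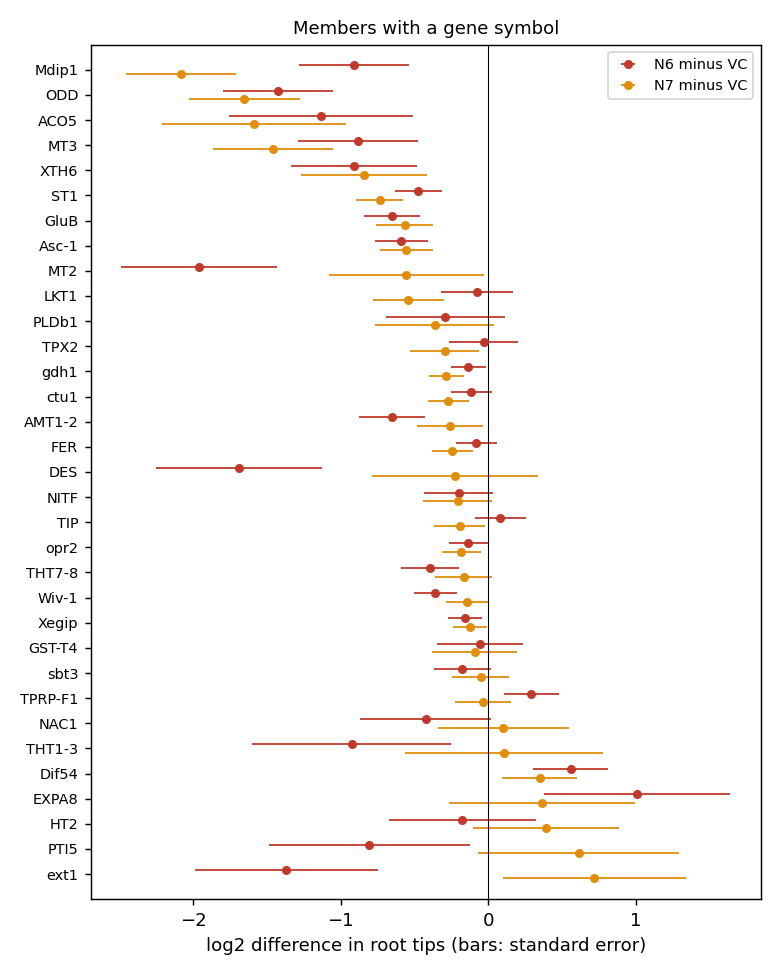
Log2 difference in root tips for the 33 members with a gene name, N6 minus VC in red and N7 minus VC in orange, with the standard error of the fit, ordered by the N7 value. None passed an adjusted p of 0.05. Values lie below 0 for 29 in N6 and 26 in N7, beside 51.9% and 46.3% of all tested probe sets.

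The 5 most enriched members, all without a symbol, were nearly level between the genotypes with 1 exception. Les.3198.1.S1_at had 5527, 7181 and 5555 in N6, 5908, 6488 and 5268 in N7 and 5914, 7596 and 5918 in VC. Differences for it, LesAffx.53132.1.S1_at, LesAffx.66472.1.S1_at and Les.3828.1.S1_at lay between -0.234 and 0.081. LesAffx.69264.1.S1_at had 3355, 2744 and 3400 in N6, 3191, 3096 and 3635 in N7 and 3902, 5633 and 4724 in VC. It is among the 19 without overlap, at -0.58 ± 0.16 (adjusted p = 0.403) and -0.51 ± 0.16 (adjusted p = 0.633).

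In leaves, where members are dim by choice, 114 members passed the filter on low values and could be tested. The other 86 were too dim, and a member may have passed only through a line in which it is high, so the counts describe those that passed. Of those called in leaves, 2 in N6 and 1 in N7 were above the floor in 1 group only, and in fruit 3 in N6 and 2 in N7. Other calls passed the filter only with the arrays of 1 group counted. Examples are HT2 and ODD in N6 leaves, PTI5 in N6 fruit and sbt3 in N7 fruit. How many members did so is not given, and the counts of called members include them. In N6, 23 were called, 15 higher (background 5.36%) and 8 lower (background 5.85%), which is 20.2% of those tested beside a background of 11.2%. In N7, 10 were called, 3 higher (background 3.73%) and 7 lower (background 3.7%), or 8.77% beside a background of 7.43%. The median log2 difference was 0.213 in N6 and 0.007 in N7, beside 0.032 and -0.02 over all tested probe sets. The N6 count fell to 7 without VC 1 or VC 2, 14 without VC 3, 12 without N6 1, 10 without N6 2 and 13 without N6 3, and was 34 without N7 3. The N7 count was 4 without VC 1, 2 without VC 2, 4 without N7 2 and 24 without N7 3, the array that resembled WT leaves. The log2 3'/5' ratio averaged 4.29 in N6, 4.58 in N7 and 4.73 in VC leaves, and with it as a covariate the N6 count was 5 and the N7 count 11. The background of these refits is not given, so the changed counts cannot be read as particular to the members.

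The most changed member in leaves was Les.3700.1.S1_at, which has no symbol. Its signal was 395, 214 and 246 in N6, 2427, 3707 and 1697 in N7 and 0.635, 12.8 and 23.6 in VC leaves. VC was under the floor on all 3 arrays, as were the WT leaves at 19.8, 34.8 and 22.6, and both lines were far above it. Signals in N7 leaves came close to those in root tips, which were 3767, 3328 and 3613 in N7 and 3613, 4524 and 4729 in VC. The leaf difference was at least 49.6-fold in N7 (log2 5.63 ± 0.30, adjusted p = 1.59e-05) and at least 5.5-fold in N6 (2.46 ± 0.30, adjusted p = 0.00198). N7 exceeded N6 by 3.17 with an adjusted p of 0.000668. Both calls against VC were kept when any 1 array was left out and when no filter was used. In root tips the difference was -0.27 in N6 and -0.26 in N7, and the difference between the line effects in root tips and leaves was -2.73 in N6 (adjusted p = 0.0274) and -5.89 in N7 (adjusted p = 5.23e-05). The fruit arrays gave 22.4, 21.0, 35.7 and 31.2 in N6, 9.07, 4.26, 7.79 and 15.9 in N7 and 105.6, 70.6, 155 and 1090 in VC. Both lines were under the floor on all 4 arrays while VC was above it, VC 4 furthest, which puts the lines at least 3.77-fold lower. The probe set passed the filter through the VC arrays alone, so its filtered test is not given, and with all probe sets tested the difference of -1.91 ± 0.58 did not pass (adjusted p = 0.133 in N6 and 0.118 in N7).

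LesAffx.31022.1.A1_at rose in leaves of both lines. Its leaf signal was 2018, 1136 and 1314 in N6, 1260, 2209 and 588 in N7 and 165, 135.8 and 177 in VC. All line arrays lay above VC, at 9.12-fold in N6 (log2 3.19 ± 0.41, adjusted p = 0.00245) and 7.44-fold in N7 (2.90 ± 0.41, adjusted p = 0.00578). In root tips it had 597.7, 580 and 996 in N6, 1350, 860 and 1128 in N7 and 1041, 869 and 1398 in VC, so that N6 leaves lay above N6 root tips and N7 leaves overlapped with N7 root tips. The line effect in root tips minus that in leaves was -3.81 in N6 (adjusted p = 3.32e-05) and -2.88 in N7 (adjusted p = 0.0016).

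N6 and N7 leaves differed for some members. Les.5530.1.S1_at had 1405, 784 and 339 in N6, 147, 202.5 and 24.4 in N7 and 110, 84.6 and 85.3 in VC leaves. N6 was above all others and N7 spread around VC. The difference in N6 was 2.96 ± 0.57 (adjusted p = 0.0121), lost with the 3'/5' covariate (adjusted p = 0.0594), and N7 minus N6 was -2.66 (adjusted p = 0.028). LesAffx.64439.1.S1_at had 776.6, 340 and 109 in N6 leaves, while all N7 and VC leaves were under the floor, between 13.6 and 30.6. It was at least 6.13-fold higher in N6, at 2.62 ± 0.54 on the log2 scale. It passed the filter through the N6 arrays alone, so its filtered test is not given, and with all probe sets tested it did not pass (adjusted p = 0.0831). GluB stood at 5401, 2170 and 2763 in N6, 3103, 5321 and 757 in N7 and 163.6, 536 and 1873 in VC leaves, with VC 3 above N7 3. Its differences of 2.54 ± 0.88 (adjusted p = 0.0939) and 2.08 ± 0.88 (adjusted p = 0.177) did not pass the test. LOC778326 rose in N7 leaves by 1.11 ± 0.28 (adjusted p = 0.0424), and the call was lost without any 1 VC array, and without N6 2, N6 3, N7 1 or N7 2, with adjusted p up to 0.152, and with the replicate block (0.0793).

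Lower in leaves were Les.1645.1.A1_at and several genes with a name. Les.1645.1.A1_at had 75.3, 58.8 and 36.6 in N6, 55.2, 83.6 and 95.9 in N7 and 183, 203.5 and 246 in VC, without overlap. Its difference was -1.79 ± 0.24 in N6 (adjusted p = 0.0031) and -1.46 ± 0.24 in N7 (adjusted p = 0.0136), and the N7 call was lost without VC 2 (adjusted p = 0.0568). The aquaporin TIP had 348, 490 and 332 in N6, 158, 79.7 and 82.9 in N7 and 207.5, 250.7 and 205.5 in VC leaves. N7 lay below VC and N6 above it. The difference in N7 was -1.12 ± 0.28 (adjusted p = 0.0419), in N6 0.80 ± 0.28 (adjusted p = 0.0963), and N7 minus N6 was -1.92 (adjusted p = 0.00582). The N7 call was lost without any 1 VC array, and without N6 1, N6 3, N7 2 or N7 3, with adjusted p up to 0.148, and with the replicate block (0.0791). Xegip had 201.6, 163.8 and 169.7 in N6, 122, 117.7 and 138.6 in N7 and 203.3, 280 and 342 in VC leaves. All line arrays lay below VC, and the N7 difference of -1.096 ± 0.21 (adjusted p = 0.0203) was lost without VC 2 or N7 2 (adjusted p up to 0.0887).

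In N6 leaves the glutathione transferase ctu1 fell by 1.31 on the log2 scale, HT2 by 1.48, ODD by 1.28 and NITF by 0.644, with adjusted p of 0.0201, 0.0343, 0.0361 and 0.039. HT2 and ODD passed the filter only with the VC arrays counted, which leaves their filtered tests void. With no filter neither passed (adjusted p = 0.126 for each). The calls depended on single arrays and on the settings. That of ctu1 was lost without VC 2, VC 3, N6 2 or N6 3 (adjusted p up to 0.0729) and with the 3'/5' covariate (0.0756). That of HT2 was lost without any 1 VC array, without N6 2 or N6 3 (up to 0.134), and at a floor of 25, with WT in the fit, the replicate block or the covariate (up to 0.136). ODD and NITF lost theirs without any 1 of the 6 N6 and VC arrays (up to 0.104 and 0.13), with the block and with the covariate (up to 0.148 and 0.127). ODD also lost its call at a floor of 100, where the difference was -0.315 (adjusted p = 0.285), and NITF at a floor of 25 (0.0676). Les.2474.1.S1_at fell by 1.72 in N7 leaves (adjusted p = 0.0275), lost without any 1 VC array, without N7 1 or N7 2 (up to 0.107) and with the block (0.0641). With no filter on low values, 14 named leaf calls were lost (adjusted p 0.0529 to 0.147), and those kept were of Les.3700.1.S1_at in both lines and of LesAffx.31022.1.A1_at and Les.1645.1.A1_at in N6.

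In ripe fruit 60 members passed the filter and could be tested, under the same limit on counts. Of the 200 members, 143 were at the floor on all fruit arrays labelled N6, 144 on those labelled N7 and 115 on those labelled VC. In N6, 18 were called, 8 higher (background 9.9%) and 10 lower (background 9.23%), which is 30% of those tested beside a background of 19.1%. In N7, 23 were called, 10 higher (background 14.6%) and 13 lower (background 9.65%), or 38.3% beside a background of 24.3%. The median difference was -0.083 in N6 and -0.061 in N7, beside 0.058 and 0.104 over all tested probe sets. Without VC 4, the array that carried M62653, the counts were 21 in N6 and 29 in N7. The N6 count was 10 without VC 1, 9 without VC 3, 10 without N6 2 and 10 without N6 4, and the N7 count 13 without VC 1, 15 without VC 2, 14 without VC 3, 14 without N7 1 and 14 without N7 2. The 3'/5' ratio averaged 3.63 in N6, 3.2 in N7 and 4.1 in VC fruit, and with it as a covariate the counts were 25 in N6 and 14 in N7. For these refits too the background is not given.

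Les.415.1.A1_at was the most changed member in fruit and fell in both lines. It had 8.7, 15.2, 12.0 and 9.31 in N6, 16.4, 15.9, 18.4 and 82.5 in N7 and 200.4, 341, 249 and 227.5 in VC. All line arrays but N7 4 were under the floor and all VC arrays well above. In N6 it was at least 4.99-fold lower (-2.32 ± 0.21), and in N7 the difference was -2.14 ± 0.21. The probe set passed the filter only with the VC arrays counted, so its filtered test is not given. Over all alternative settings, no filter among them, the adjusted p was at most 0.000111 in N6 and 0.000191 in N7. Its root tip signals, 5239, 5175 and 4062 in N6, 4104, 4399 and 4017 in N7 and 3655, 4427 and 3976 in VC, overlapped. In leaves it was on the high side in N6, at 861, 2105 and 1139, with 1078, 316 and 55.4 in N7 and 173.6, 272 and 204.6 in VC, and neither difference passed the test.

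Xegip was lower in fruit too. It had 288, 269, 287.6 and 242 in N6, 150.2, 112, 158 and 96.2 in N7 and 483.7, 473.6, 443.8 and 388.8 in VC. The groups did not overlap. The difference was -1.82 ± 0.20 in N7 (3.52-fold lower, adjusted p = 3.49e-05), kept without any 1 array, and -0.72 ± 0.20 in N6 (adjusted p = 0.0237), lost without VC 1, VC 2, VC 3, N6 2 or N6 4 (adjusted p up to 0.0759), and with median scaling (0.0913). N7 minus N6 was -1.1 with an adjusted p of 0.00826. In root tips Xegip had 3407, 3925 and 3425 in N6, 3567, 3900 and 3530 in N7 and 3799, 4282 and 3893 in VC, and the N7 effect in root tips minus that in fruit was 1.70 (adjusted p = 2.76e-05) and minus that in leaves 0.97 (adjusted p = 0.0253).

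Les.5745.1.S1_at and Les.4701.1.S1_at were also lower in fruit. Les.5745.1.S1_at had 209.8, 104.9, 91.5 and 85.2 in N6, 144, 136.5, 66.2 and 181 in N7 and 497, 260, 402 and 290.5 in VC, without overlap, at -1.62 ± 0.35 (adjusted p = 0.00548) and -1.50 ± 0.35 (adjusted p = 0.00788). Les.4701.1.S1_at had 521.5, 532, 459 and 444 in N6, 192.5, 169, 148.6 and 167.6 in N7 and 817, 907, 696.5 and 354.6 in VC, with VC 4 below N6 but above N7. It fell in N7 by 1.95 (adjusted p = 0.000115) and N7 minus N6 was -1.53 (adjusted p = 0.00426). The calls of both probe sets were kept without any 1 array. TIP was too dim in fruit to be tested, at 8.97 to 26.1 in N6, 15.8 to 20.3 in N7 and 43.9 to 139 in VC.

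Members higher in fruit included 3 without a symbol. Les.3228.1.S1_at had 334, 311.5, 269.8 and 268 in N6, 229, 260.8, 129.9 and 178 in N7 and 56.7, 50.3, 48.2 and 221 in VC. Les.3228.2.S1_a_at, whose name ties it to the same cluster, had 372.5, 348, 324 and 332 in N6, 308.6, 292, 161.9 and 225.6 in N7 and 74.3, 54.9, 33.5 and 306 in VC. In both, VC 4 stood far above the other VC arrays and inside the range of N7. They rose by 1.98 ± 0.41 (adjusted p = 0.00357) and 1.95 ± 0.45 (adjusted p = 0.00765) in N6. In N7 the differences were 1.37 (adjusted p = 0.0257) and 1.43 (adjusted p = 0.0323). Both N7 calls were lost without VC 1, VC 2, VC 3, N7 1 or N7 2 and that of Les.3228.2.S1_a_at also without N7 4 (adjusted p up to 0.0847 and 0.108). They were also lost at a floor of 100, with no filter and with WT in the fit, and with the 3'/5' covariate the differences were 0.389 (adjusted p = 0.4) and 0.339 (adjusted p = 0.522). Les.2832.1.S1_at had 65.3, 78.3, 56.4 and 95.9 in N6, 250.8, 257, 317 and 267 in N7 and 42.2, 61.6, 25.4 and 137 in VC. Only N7 was above VC, at 2.00 ± 0.30 (4.01-fold, adjusted p = 0.000336), and N7 minus N6 was 1.91 (adjusted p = 0.0035).

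Further members were called in fruit with smaller differences. PTI5 stood at 168.5, 101.9, 100.7 and 168 in N6 against 81.7, 44.5, 44.6 and 101 in VC, a log2 difference of 0.95 ± 0.25. It passed the filter only with the N6 arrays counted, so its filtered tests are not given. With all probe sets tested the difference did not pass (adjusted p = 0.0526). At a floor of 100 it was 0.381, and N7 minus N6 was -1.38. LesAffx.23253.2.S1_at rose in N6 by 1.096 ± 0.32 (adjusted p = 0.0293), lost without any 1 of the 4 N6 arrays or of VC 1, VC 2 and VC 3 (adjusted p up to 0.0983) and with WT in the fit (0.102). NITF rose in N7 by 0.79 (adjusted p = 0.0196), lost without VC 1, VC 2, VC 3 or N7 2 (adjusted p up to 0.0669), and with the covariate, where it was 0.334 (adjusted p = 0.26). HT2 fell in N7 by 1.00 (adjusted p = 0.0486), and 9 of the 12 arrays ended the call when left out, all but VC 1, VC 3 and VC 4 (adjusted p up to 0.109). It was also lost with WT in the fit (0.0611), with the replicate block (0.0504) and at a floor of 100, where the difference was -0.348 (adjusted p = 0.338). The protease sbt3 differed by 0.87 in N7. It passed the filter only with the N7 arrays counted, so its filtered tests are not given. With all probe sets tested the difference did not pass (adjusted p = 0.139). At a floor of 100 it was 0.119, and with the covariate 0.205. Les.5530.1.S1_at fell in N7 by 0.794 (adjusted p = 0.0374), lost without VC 1, VC 2, VC 3, N6 2 or any 1 N7 array (adjusted p up to 0.111), at a floor of 25 (0.0611), and with the covariate, where it was -0.486 (adjusted p = 0.306). It passed the filter only with the VC arrays counted, which leaves its filtered test void, and with no filter it did not pass (adjusted p = 0.102). With no filter, 9 named fruit calls were lost (adjusted p 0.0526 to 0.145).

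**Figure D5:**
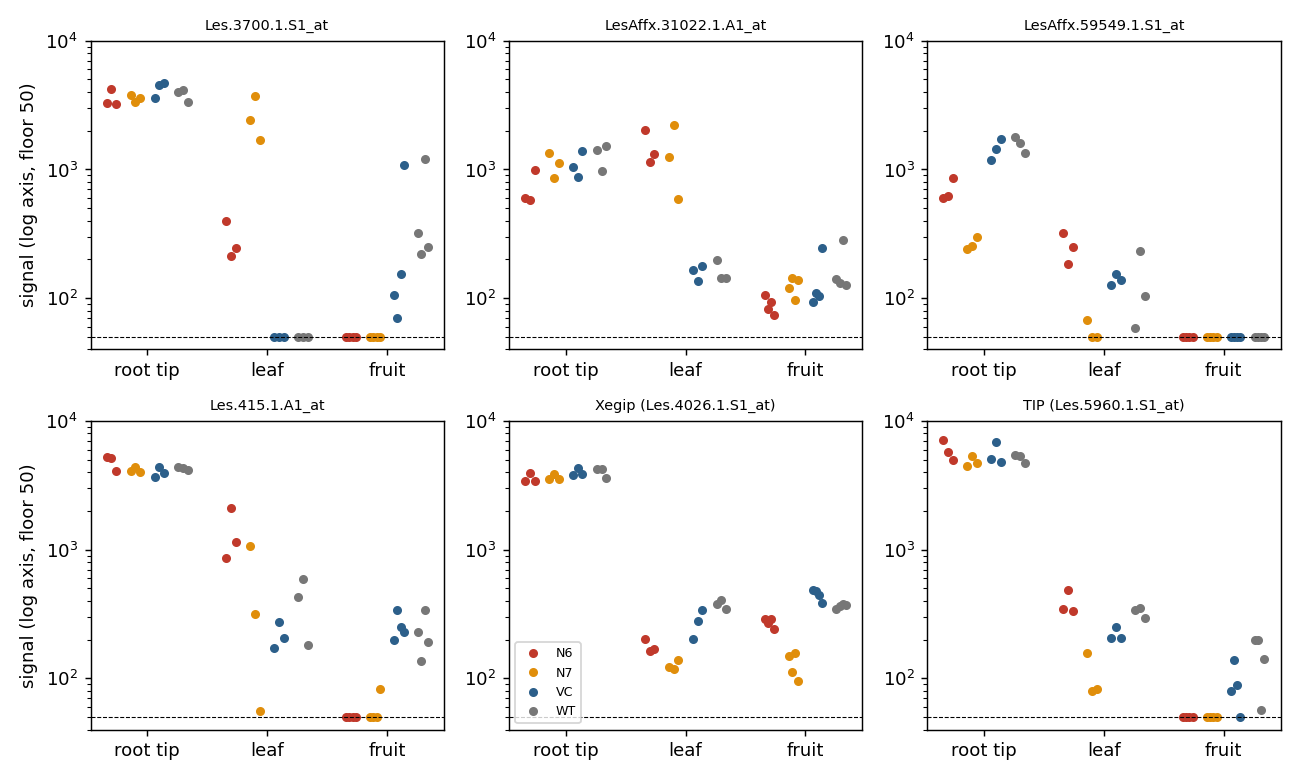
Signals of 6 members on every array (log axis, values under 50 drawn at the floor, dashed line), by tissue and, within each tissue, N6, N7, VC and WT from left to right. Les.3700.1.S1_at lies between 1697 and 3707 in N7 leaves and under the floor in VC leaves. LesAffx.59549.1.S1_at in root tips lies between 242 and 299.5 in N7 and between 1194 and 1726 in VC.

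With the mean of N6 and N7 against VC, 13 of the members tested in leaves were called, 8 higher and 5 lower (background 9.59%), and 21 in fruit, 8 higher and 13 lower (background 26.3%).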

How the data were processed

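Transcript levels were measured in tomato root tips, leaves and ripe fruit of N6, N7, VC and WT on Affymetrix arrays after a 2-cycle labelling, per the labels' protocols. The deposited values are linear intensity values, 1 signal per probe set and array, which the authors made with GCOS, per the submitters' processing notes. Its version and settings were not stated. Every array has a trimmed mean of 500 when the outer 2% are left out, so a global scaling was already applied, and a change in many bright transcripts would shift all others. Of 10209 probe sets, 108 AFFX and 63 RPTR controls were left out.

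Signals under 50 were set to 50 and log2 was taken, so folds of dim probe sets are understated. Within each tissue VC, N6 and N7 arrays were fitted with limma 3.58.1 (R 4.3.3, variance trend, two-sided, Benjamini-Hochberg over all tested probe sets, called at adjusted p under 0.05). A probe set was tested if above the floor on at least 4 fruit, 3 leaf or 3 root tip arrays. Enrichment and tissue differences came from 1 fit over all 3 tissues. A fold against a group wholly at the floor is a lower bound. The number of arrays limits the precision. The fits were tested on simulated N6 changes. Of 100 changes of 1 on the log2 scale, 64 were recovered in root tips, 64 in leaves and 84 in fruit. Of 100 changes of 2, the numbers were 91, 98 and 98. False calls were 15, 14 and 16. Only bright probe sets were changed, so recovery near the floor was not tested.

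Symbols came from the platform annotation (909 probe sets, of which 885 matched a gene table of assembly SLM_r2.1 used for names only). Sequences were not used here. Named members were all those with an informative symbol, the 3 highest and 3 lowest called per comparison, the 5 most enriched and those next to the boundary; others are named where a count of 6 or fewer or a described list holds them. Members and lists were chosen with earlier results of these data known. The alternatives were other floors, scalings, no filter, WT in the fit, a replicate block, the 3'/5' ratio as covariate, other member choices and leaving out each array. In root tips, same-numbered N6 and N7 arrays deviated together (correlations 0.319, 0.305 and 0.414), as read from the data and not from the labels, so N7 against N6 was also fitted with the number as a block.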

Additional observations from a re-analysis of the deposited data

Results flagged for a closer look

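Effects that differed between tissues by the test of the difference itself (limma, adjusted p under 0.05, line effect in root tips minus that in the other tissue) were found for several members. Against leaves the differences were -3.81 in N6 and -2.88 in N7 for LesAffx.31022.1.A1_at, -4.22 in N6 for Les.5530.1.S1_at, -4.05 in N6 for LesAffx.64439.1.S1_at, 1.61 in N6 and 1.32 in N7 for Les.1645.1.A1_at, -2.73 in N6 and -5.89 in N7 for Les.3700.1.S1_at, -1.88 in N6 and -1.11 in N7 for LesAffx.59549.1.S1_at, and 0.97 in N7 for Xegip. Against fruit they were 1.70 in N7 for Xegip, -0.999 in N7 for NITF, -2.39 in N6 for Les.3228.1.S1_at, -2.03 in N6 for Les.3228.2.S1_a_at, -1.69 in N6 for LesAffx.23253.2.S1_at, 2.58 in N6 for Les.415.1.A1_at, 1.58 in N6 and 1.67 in N7 for Les.5745.1.S1_at, -2.03 in N7 for Les.2832.1.S1_at and 1.81 in N7 for Les.4701.1.S1_at. In leaves LesAffx.64439.1.S1_at passed the filter only through the N6 arrays. In fruit Les.415.1.A1_at passed it only with the VC arrays counted. The tests of the difference between tissues are therefore void for these members, and only the sizes are given.

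The lines differed from each other, N7 minus N6, in leaves by -1.92 for TIP, -2.66 for Les.5530.1.S1_at, -2.62 for LesAffx.64439.1.S1_at, 3.17 for Les.3700.1.S1_at and -2.14 for LesAffx.59549.1.S1_at. LesAffx.64439.1.S1_at was above the floor in N6 leaves alone and passed the filter only through them, so its test between the lines is void. In fruit they differed by -1.1 for Xegip, 1.204 for sbt3, -1.38 for PTI5, 1.91 for Les.2832.1.S1_at and -1.53 for Les.4701.1.S1_at. There sbt3 passed the filter only with the N7 arrays counted and PTI5 only with the N6 arrays, so their tests between the lines are void.

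Single fruit arrays stood apart from their group, with the gap to the nearest array given as a share of the group's range. Among arrays labelled VC the share was 0.916 for sbt3, 0.881 for HT2, 0.917 for Les.3700.1.S1_at, 0.951 for Les.3228.1.S1_at, 0.85 for Les.3228.2.S1_a_at and 0.935 for LesAffx.23253.2.S1_at. It was 0.964 for Les.415.1.A1_at in N7, where N7 4 was high, and 0.842 for Les.5745.1.S1_at in N6, where N6 1 was high. How often chance gives such a gap was not tested, and cases that rest on the same array are not independent.

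Reporter control A06498, outside the main measurement, averaged 328.1 in N6 and 303.1 in N7 root tips, 138.9 in N6 and 436.6 in N7 leaves and 278 in N7 fruit, above every VC and WT array.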

How the results depend on the processing

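Of 39 calls of named members, 14 were kept under every alternative run, 25 were lost under at least 1 and 0 reversed. These tallies include calls whose filtered tests are void, as stated where each member is described. Both fruit calls of Les.415.1.A1_at are among them and count as kept. The percentages that follow are of all members chosen, tested or not, and have no background of the same fit beside them. They cannot be set against the shares of tested members above. In members called, N7 root tips (0.5) gave 1.5 with median scaling, 1 with WT in the fit, 1.5 with the 3'/5' covariate, 1 for the 100 largest and 0.25 for the 400 largest. N6 leaves (11.5) gave 3.5 without a filter, 2.5 with the covariate and 6 for the 100 largest, and N7 leaves (5) gave 1 without a filter, 3 with the replicate block and 3 for the 100 largest. N6 fruit (9) gave 5.5 at floor 100, 4 for the 100 largest and 14.5 for members from root tip minus leaf, a choice made after seeing the data. N7 fruit (11.5) gave 5.5, 6 and 18 in these settings and 7 with the covariate. Leaving out 1 array gave 0 in N6 root tips, 0.5 to 1.5 in N7 root tips, 3.5 to 17 in N6 leaves, 1 to 12 in N7 leaves, 4.5 to 10.5 in N6 fruit, 6.5 to 14.5 in N7 fruit and 99.5 to 100 for enrichment in VC. The cause of these moves was not tested. Between lines and VC the replicate numbers did not pair the arrays in every pair: over all pairs of groups, correlations were above 0.1 in 5 of 9 root tip pairs, the 3 of N7 with N6 among them, 0 of 9 leaf and 6 of 12 fruit pairs. The replicate block gave 0 and 0.5 in root tips, 8 and 3 in leaves and 8.5 and 12 in fruit, in N6 and N7. For N7 against N6 in root tips, on the 6 line arrays, 0 of 6373 probe sets were called with the block (408 at an unadjusted p under 0.05) and 3 without it, none of them members; this fit was added after seeing the data. Signals near the floor limit what can be read in leaves and fruit.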
